A study of Mus musculus with 2 samples.

Results

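The genes described here encode most nuclear subunits of respiratory complex III, complex IV and ATP synthase, together with cytochrome c, in mouse skeletal muscle. They are the protein-coding genes whose names begin with Uqcr, Cox4 to Cox8 or Atp5, plus Cyc1 and Cycs. The rule found 46 gene entries with 45 names, against 15521 annotated genes with a read in either library. Reads were seen for 42 of the 46 in replicate 2 and for 43 in replicate 1, and 41 reached the minimum of 10 reads over both libraries. Atp5o has 2 entries. Its second entry, ENSMUSG00000116933.1, had 0 reads in replicate 2 and 2 in replicate 1, and every value of Atp5o given here is of the other entry.

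Long-read RNA sequencing, in which 1 read follows 1 transcript molecule for as much of its length as was copied, was done on the gastrocnemius, which lies in the calf. The mice were B6CASTF1/J females aged 25 days. This strain is the first-generation cross of C57BL/6J and CAST/EiJ. There is 1 group, for which the labels name no mutation, transgene or treatment, with 2 biological replicates, numbered animals 04 (replicate 2) and 03 (replicate 1), each from 2 µg of total RNA. Both replicates carry the same donor record, and differences between animals, dissections and libraries cannot be told apart. No conditions are contrasted: a test between the libraries compares their reads alone.

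Mouse reads numbered 1557594 for replicate 2 against 1069771 for replicate 1. Levels are given in CPM, a gene's reads scaled to a common total of mouse reads, and are not divided by transcript length, since 1 read stands for 1 molecule. The labelled tissue was checked against its defining genes. The 6 skeletal muscle fibre markers summed to 179500 and 173100 CPM in replicates 2 and 1. Acta1 (75270 and 73990 CPM) and Ckm (69650 and 59920 CPM) made up most of this sum. In replicate 2, 4 of the 6 were called higher, while Myh4 (7963 and 16360 CPM) and Myh1 (1502 and 7673 CPM) were lower. Liver markers summed to 0 and 1.87 CPM, and heart markers to 2.57 and 2.80 CPM, in replicates 2 and 1. Markers of slow fibres stood at 7915 CPM in replicate 2 and 958 CPM in replicate 1, and all 7 were higher in replicate 2. Tendon markers stood at 386 and 67.3 CPM, while erythroid markers stood at 415 and 1235 CPM and adipocyte markers at 251 and 530 CPM. Of the 5 adipocyte markers, 4 were lower in replicate 2, and Fabp4, at 144.5 and 109.4 CPM, was not called. Of the 4 fibroblast markers, Col3a1 was lower in replicate 2, at 706 and 2665 CPM, Dcn was higher, at 363 and 205 CPM, and the other 2 were not called. In bulk tissue, fewer cells of a type and less RNA per cell cannot be told apart.

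Complex III passes electrons from ubiquinol to cytochrome c, a small soluble carrier, and complex IV passes them on to oxygen. Both move protons across the inner mitochondrial membrane, and ATP synthase lets protons back through its membrane ring to drive ATP synthesis. Most subunits are nuclear genes, a few sit in mitochondrial DNA, and several subunits of complex IV come as gene pairs, with a heart and skeletal muscle type beside a more widely expressed liver type.

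In ATP synthase the c ring that turns in the membrane is built from 3 nuclear genes, Atp5g1, Atp5g2 and Atp5g3, whose import sequences differ while the mature protein is the same. The last 228 coding bases, stop codon included, are shown because they hold this shared part, and because they show how far the 3 transcripts differ in it. Coordinates are of mm10, on the minus strand, with introns inside the range. Capitals mark bases that differ from Atp5g1: 46 in Atp5g3, 41 of them at the last position of a codon, and 34 in Atp5g2, 32 of them at that position.
Atp5g1 (chr11:96073104-96073635): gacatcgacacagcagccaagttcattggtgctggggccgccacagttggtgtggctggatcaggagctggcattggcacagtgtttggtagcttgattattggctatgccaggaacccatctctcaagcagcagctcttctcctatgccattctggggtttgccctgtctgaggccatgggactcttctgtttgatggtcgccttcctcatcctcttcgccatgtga
Atp5g3 (chr2:73908593-73909296): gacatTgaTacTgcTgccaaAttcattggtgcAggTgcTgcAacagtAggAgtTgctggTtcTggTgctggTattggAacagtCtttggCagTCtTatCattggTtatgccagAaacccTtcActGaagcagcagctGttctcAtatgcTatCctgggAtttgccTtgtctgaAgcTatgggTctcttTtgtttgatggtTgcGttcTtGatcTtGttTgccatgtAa
Atp5g2 (chr15:102663014-102665166): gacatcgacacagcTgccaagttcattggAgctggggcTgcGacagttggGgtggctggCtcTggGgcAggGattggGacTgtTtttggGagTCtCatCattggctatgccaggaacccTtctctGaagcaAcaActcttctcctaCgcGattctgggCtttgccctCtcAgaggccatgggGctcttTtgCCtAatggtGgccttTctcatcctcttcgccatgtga

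Over whole coding sequences, the muscle and liver types of complex IV subunits were further apart than the c ring genes. Aligned coding bases were identical at 64.6% for Cox6a2 and Cox6a1, at 62.6% for Cox7a1 and Cox7a2 and at 53.6% for Cox8b and Cox8a. By the same measure, with import sequences included, Atp5g1 stood at 72.7% with Atp5g2 and at 68.6% with Atp5g3. Atp5g2 and Atp5g3 stood at 71.1%. The Cox7a pair is shown whole because it is the pair whose types were read about equally. Capitals mark bases that differ from the partner or have none opposite. Cox7a1 is on the plus strand and Cox7a2 on the minus strand.
Cox7a1 (chr7:30184231-30185967): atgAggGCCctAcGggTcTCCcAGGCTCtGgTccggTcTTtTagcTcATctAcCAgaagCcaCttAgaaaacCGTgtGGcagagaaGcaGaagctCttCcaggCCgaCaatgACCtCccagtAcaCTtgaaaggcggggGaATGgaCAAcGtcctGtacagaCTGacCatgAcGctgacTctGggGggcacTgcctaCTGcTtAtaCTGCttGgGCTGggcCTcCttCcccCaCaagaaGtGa
Cox7a2 (chr9:79755547-79759657): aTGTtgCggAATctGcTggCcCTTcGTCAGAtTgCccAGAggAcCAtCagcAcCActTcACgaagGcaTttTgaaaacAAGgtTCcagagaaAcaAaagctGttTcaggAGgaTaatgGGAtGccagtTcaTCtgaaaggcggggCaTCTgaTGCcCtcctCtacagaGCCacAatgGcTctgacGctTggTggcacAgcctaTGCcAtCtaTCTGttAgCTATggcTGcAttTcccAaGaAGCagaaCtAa

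The subunit genes took 5.34% of mouse reads in replicate 2 (83187 reads) and 3.08% in replicate 1 (32910 reads), a mean of 4.21% ± 1.60 (SD, n = 2). ATP synthase genes were the largest group, at 2.29% of reads in replicate 2 and 1.45% in replicate 1. Complex IV genes stood at 1.96% and 0.885%, complex III genes at 1.01% and 0.678%, and Cycs alone at 0.0935% and 0.0682%. The exact Clopper-Pearson 95% intervals of the total were 5.31% to 5.38% and 3.04% to 3.11%. They cover counting error only, since the tables carry no molecular identifiers, and the libraries differed by far more than these widths.

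**Figure D1:**
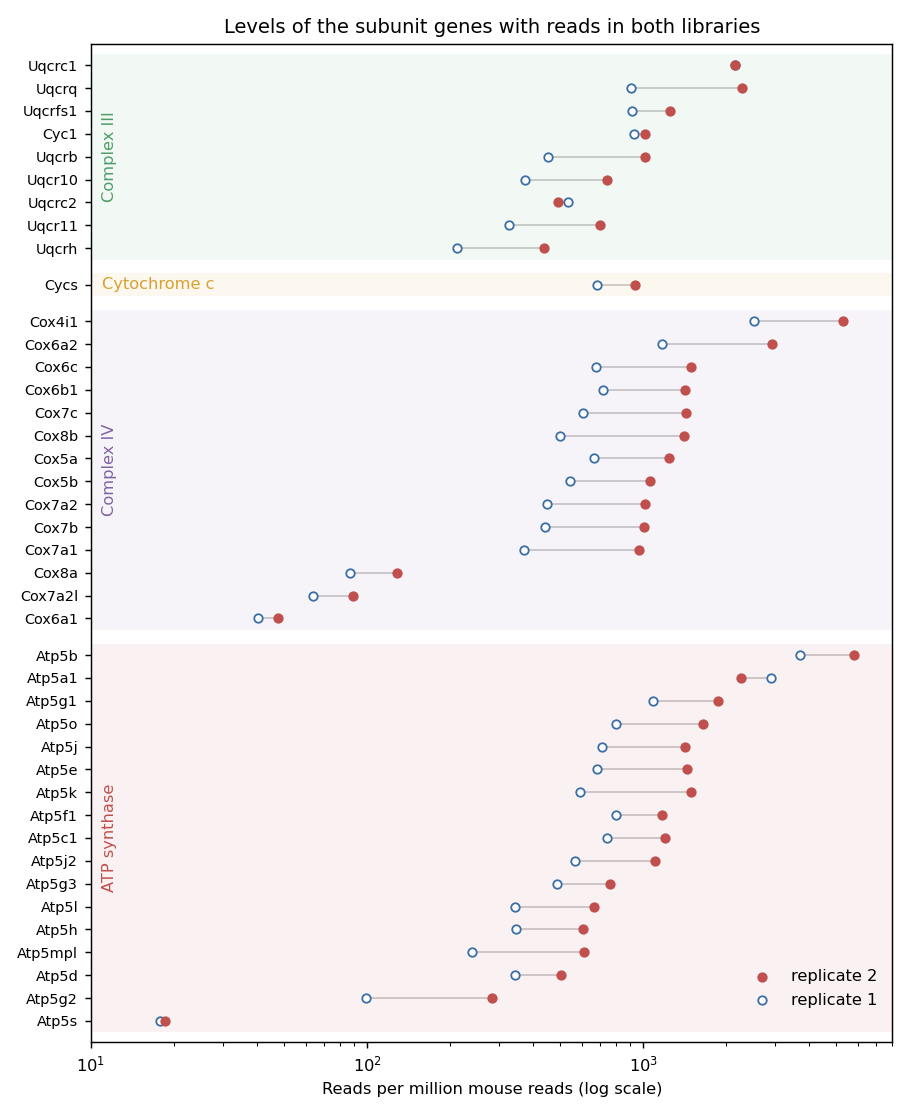
Each row is a subunit gene with reads in both libraries, grouped by complex and ordered by mean level; the log x axis gives the level in CPM, with filled points for replicate 2 and open points for replicate 1. Atp5b and Cox4i1 were read most, Cox8a, Cox7a2l, Cox6a1 and Atp5s least, and in the Atp5a1 and Uqcrc2 rows the filled point lies to the left of the open one.

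In the catalytic head of ATP synthase, Atp5b (ENSMUSG00000025393.12, chromosome 10, 128083273 to 128090391, plus strand), the beta subunit that holds the catalytic sites, was the most read gene of all the members. It had 9027 reads or 5795 CPM in replicate 2, and 3943 reads or 3686 CPM in replicate 1. Atp5a1, the alpha subunit that alternates with beta in the head, had 3515 reads or 2257 CPM in replicate 2 and 3112 reads or 2909 CPM in replicate 1. It was the single member called lower in replicate 2. In the central stalk, Atp5c1, the gamma shaft, stood at 1200 CPM in replicate 2 and 741 CPM in replicate 1, Atp5d, the delta subunit, at 505 and 342 CPM, and Atp5e, the small epsilon subunit, at 1441 and 682 CPM.

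The peripheral stalk keeps the head from turning with the shaft. Its gene Atp5o, which encodes the oligomycin sensitivity protein, had 2559 reads or 1643 CPM in replicate 2 and 852 reads or 796 CPM in replicate 1. Atp5j, coupling factor 6, had 1419 and 712 CPM, Atp5f1, subunit b, 1171 and 800 CPM, and Atp5h, subunit d, 607 and 348 CPM. The small membrane subunits Atp5k, Atp5j2, Atp5l and Atp5mpl ran between 609 and 1491 CPM in replicate 2 and between 240 and 593 CPM in replicate 1. Atp5s was far below the rest at 18.6 CPM in replicate 2 (29 reads) and 17.8 CPM in replicate 1 (19 reads).

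In complex III, Uqcrc1, a core protein on the matrix side, was level between the libraries at 2149 CPM in replicate 2 and 2150 CPM in replicate 1 (3348 and 2300 reads). Its partner Uqcrc2 stood at 490 and 533 CPM. Uqcrfs1, the Rieske iron-sulfur protein, had 1248 CPM in replicate 2 and 908 CPM in replicate 1. Cyc1, the cytochrome c1 of the complex, had 1581 reads or 1015 CPM in replicate 2 and 989 reads or 925 CPM in replicate 1. Of the small accessory subunits, Uqcrq was highest, at 3553 reads or 2281 CPM in replicate 2 and 966 reads or 903 CPM in replicate 1. Uqcrb, Uqcr10, Uqcr11 and Uqcrh, the last known as the hinge protein, ran between 437 and 1013 CPM in replicate 2 and between 212 and 452 CPM in replicate 1. No annotation entry is named Uqcrhl. Cycs, the carrier between the complexes, had 1456 reads or 935 CPM in replicate 2 and 730 reads or 682 CPM in replicate 1.

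In complex IV, Cox4i1 (ENSMUSG00000031818.12, chromosome 8, plus strand), the large nuclear subunit through which adenine nucleotides are known to modulate the enzyme, led with 8282 reads or 5317 CPM in replicate 2 and 2700 reads or 2524 CPM in replicate 1. Its alternative Cox4i2, known from lung and low oxygen, had 0 reads in replicate 2 and 1 in replicate 1. Cox6c had 1486 and 675 CPM and Cox6b1, which faces the intermembrane space, 1420 and 716 CPM. Cox5a, Cox5b, Cox7b and Cox7c ran between 1009 and 1434 CPM in replicate 2 and between 442 and 663 CPM in replicate 1.

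The testis-type partners of these subunits were almost unread. Cox6b2 had 4 reads in replicate 2 and 0 in replicate 1, and Cox7b2 and Cox8c had 0 in both. A count of 0 allows up to 3 reads, or 1.93 CPM in replicate 2 and 2.80 CPM in replicate 1, so lower levels were not detectable at this depth. Testis markers summed to 0.642 CPM in replicate 2 and 0 in replicate 1.

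The muscle type held nearly all reads of the Cox6a pair and most reads of the Cox8 pair, and the Cox7a pair was about evenly split. Cox6a2 (ENSMUSG00000030785.8, chromosome 7, minus strand), the muscle type of subunit 6a, had 4560 reads in replicate 2 and 1255 in replicate 1, against 74 and 43 reads of Cox6a1. Its share of the pair was 98.4% (95% interval 98.0 to 98.7) in replicate 2 and 96.7% (95.6 to 97.6) in replicate 1, a mean of 97.5% ± 1.21 (SD, n = 2). Both libraries were far to the muscle side, and their intervals did not overlap. A last-exon piece took 1539 and 235 of the Cox6a2 reads. Annotated chains alone held 2985 and 1013 reads of Cox6a2 and 72 and 41 of Cox6a1, a mean share of 96.9%. Intervals for those counts were not computed.

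Cox8b (ENSMUSG00000025488.9, chromosome 7, minus strand), the muscle type of subunit 8, had 2197 reads in replicate 2 and 533 in replicate 1, against 200 and 93 reads of Cox8a. It held 91.7% (90.5 to 92.7) of the pair in replicate 2 and 85.1% (82.1 to 87.8) in replicate 1, a mean of 88.4% ± 4.61 (SD, n = 2). The liver type had a larger share here than in subunit 6a, and again the intervals of the libraries did not overlap.

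Cox7a1 (ENSMUSG00000074218.3, chromosome 7, plus strand), the muscle type of subunit 7a, had 1501 reads in replicate 2 and 397 in replicate 1. Its partner Cox7a2 had 1585 and 479 reads. Cox7a1 held 48.6% (46.9 to 50.4) of the pair in replicate 2 and 45.3% (42.0 to 48.7) in replicate 1, a mean of 47.0% ± 2.35 (SD, n = 2). The intervals overlapped. If reads were divided by the length of each gene's most read complete chain, 393 bases for Cox7a1 and 659 for Cox7a2, the mean share became 59.8%, so which type led depended on that choice, while Cox6a2 at 97.1% and Cox8b at 92.1% still led. Cox7a2l, a related protein that joins complexes III and IV into supercomplexes, had 138 reads in replicate 2 and 68 in replicate 1, or 4.28% and 7.20% of the reads of the 3 Cox7a genes.

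Among the c ring genes Atp5g1 led in both libraries. It had 2918 reads or 1873 CPM in replicate 2 and 1161 reads or 1085 CPM in replicate 1, which was 64.2% (62.8 to 65.6) and 65.0% (62.7 to 67.2) of the family. The Atp5g3 share was 26.1% (24.8 to 27.4) for replicate 2 and 29.1% (27.0 to 31.3) for replicate 1, from 1185 and 520 reads. The Atp5g2 share was 9.75% (8.90 to 10.6) and 5.93% (4.88 to 7.13), from 443 and 106 reads. The order was the same in both libraries, and the Atp5g2 share alone had intervals that did not overlap. That share rests largely on an unspliced 151-base model at the 3′ end, with 267 reads in replicate 2 and 42 in replicate 1. The 5-exon coding model Atp5g2-202 had 166 and 61 reads, beside 2357 and 981 on Atp5g1-202. Family shares without such pieces were not computed.

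**Figure D2:**
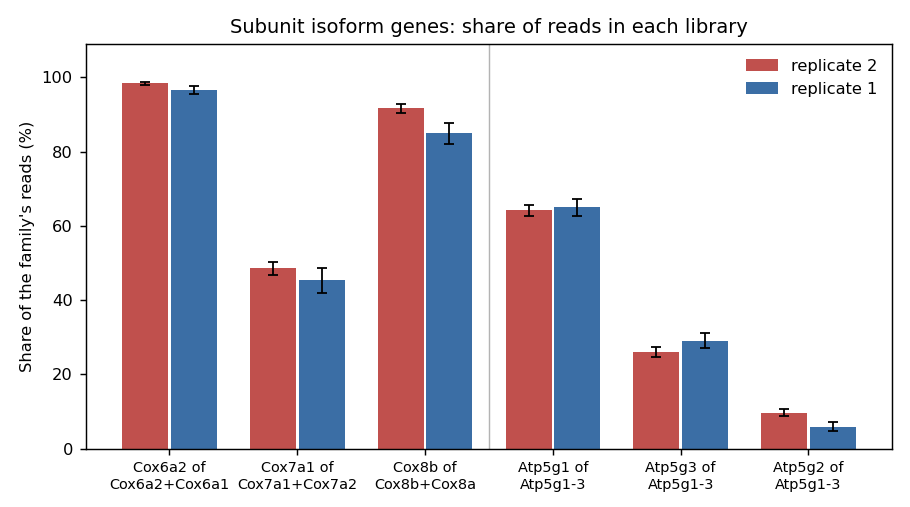
Bars give the share of a family's reads held by each gene (y axis, %), with replicate 2 left of replicate 1 in each pair of bars and 95% Clopper-Pearson intervals. Cox6a2 held 96.7% or more and Cox8b 85.1% or more of their pairs, Cox7a1 between 45.3% and 48.6%, and Atp5g1 held 64.2% and 65.0% of the c ring reads.

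The gamma subunit gene Atp5c1 (ENSMUSG00000025781.14, chromosome 2, minus strand) was read almost wholly without its alternative exon. In human muscle the gamma transcript is known to skip the corresponding exon. In mm10 the exon is chr2:10056770-10056806, 37 bases, between the exons chr2:10058996-10059092 and chr2:10056016-10056161. Complete-chain reads are those on models with a full intron chain, annotated or not, and not a piece of one. Of those that held both neighbouring exons, 1620 of 1649 skipped it in replicate 2 and 715 of 729 in replicate 1. The shares were 98.2% (97.5 to 98.8) and 98.1% (96.8 to 98.9), a mean of 98.2% ± 0.114 (SD, n = 2), and the intervals overlapped almost wholly. The choice sets the end of the coding sequence, so both junctions are shown, with the last 20 bases of the upstream exon in lower case and the bases after the junction up to and including the stop codon in capitals.
Atp5c1-201 (chromosome 2, exon skipped): atctctggggctgctgctctGTAA
Atp5c1-203 (chromosome 2, exon held): atctctggggctgctgctctGGATTAA
The skipping model ends 4 bases after the junction and has a coding length of 894 bases with the stop codon. The holding model reads 7 bases into the exon and has 897.

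Both libraries were then set against each other gene by gene, with a log2 ratio of replicate 2 over replicate 1 and Fisher's exact test, two-sided, adjusted by Benjamini-Hochberg over all 8892 genes tested. Of the 41 members tested, 34 were higher in replicate 2, 1 was lower and 6 were not called. Over all genes tested 11.1% were called higher and 14.9% lower. The members' median log2 ratio was 0.97, with a range of -0.37 to 1.52, against -0.18 over all genes tested. Complex IV had 12 of 14 members higher, ATP synthase 15 of 17 with 1 lower, complex III 6 of 9, and Cycs was higher too. Fisher's test takes no account of spread between animals. With the libraries taken as replicates of 1 group, edgeR put the spread between them, from any source, at a coefficient of variation of 0.363. The tested differences themselves count as spread here, because edgeR had only the same 2 libraries to estimate it from. At this spread its exact test called 0 of 41 members, 0 even at an unadjusted p under 0.05, and 0.124% of all genes as higher and 0.045% as lower. At a fixed dispersion of 0.04 it called 2 members higher, Atp5g2 and Cox8b, and 0 lower, with 24 at an unadjusted p under 0.05, where 1.18% of all genes were called higher and 1.07% lower.

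Other scalings and thresholds of the test without spread gave similar counts of members. Both TMM and DESeq2 size factors called 37 higher and 1 lower, where 14.3% of all genes were called higher and 9.48% or 9.6% lower. Without a minimum of reads the background was 5.67% higher and 7.44% lower, with a minimum of 50 reads 21.5% and 25.5%, with complete intron chains alone 11.6% and 15%, and at an adjusted p of 0.01 7.96% and 9.54%. Members called higher under these settings numbered 34 or 35, and 1 was lower in each.

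The largest log2 ratio belonged to Atp5g2, at 1.52 (adjusted p = 5.69e-25, Fisher's exact test), from 284 CPM in replicate 2 and 99.1 CPM in replicate 1. Cox8b followed at 1.50, Cox7a1 at 1.38, and Atp5mpl, a small membrane subunit, and Uqcrq at 1.34 each. Atp5a1 fell by 0.37 on the log2 scale (adjusted p = 4.1e-23, Fisher's exact test). The other members at the low end were not called: Uqcrc2 had a log2 ratio of -0.12, Atp5s of 0.06 and Cyc1 of 0.13, and Uqcrc1 was level. The liver type Cox6a1 (0.23) and Cox7a2l (0.47) were also not called.

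The members' ratio moved with transcript length, taken as the length of the gene's most read complete chain, so that ISM and Genomic pieces do not enter it. Of the members whose chain had up to 1000 bases, 27 of 28 were higher in replicate 2, with a median log2 ratio of 1.04, and of the longer ones 7 of 13, with a median of 0.46. Spearman's rho between length and ratio was -0.65 over the 41 members and -0.50 over 8752 genes, given as a description since all points share the same 2 libraries. Among other genes, too, short ones had the higher ratios. Below 500 bases the 8 members had a median of 1.21 and 185 other genes 1.00, from 500 to 700 bases 14 members had 1.01 and 227 others 0.87, and from 700 to 1000 bases 6 members had 0.97 and 517 others 0.65. In these 3 bins 48.1%, 51.1% and 38.5% of the other genes were called higher. Above that, with limits of 1500, 2000 and 3000 bases and no limit, the other genes had medians of 0.33, -0.01, -0.29 and -0.56. Of them 20.85%, 9.05%, 4.35% and 2.79% were called higher. The 6, 5, 1 and 1 members in those bins had medians of 0.51, 0.13, -0.37 and 0.45, with 4, 2, 0 and 1 called higher.

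The ERCC spike-ins, artificial RNAs named in the labels as the same mix for both libraries, also moved with length. The 6 of 505 to 523 bases had a median log2 ratio, within spike-in reads, of 0.37, with a range of 0.14 to 0.45. The 14 of 1022 to 1156 bases had a median of -0.29, with a range of -0.98 to 0.17. Spearman's rho over 29 spike-ins was -0.76.

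**Figure D3:**
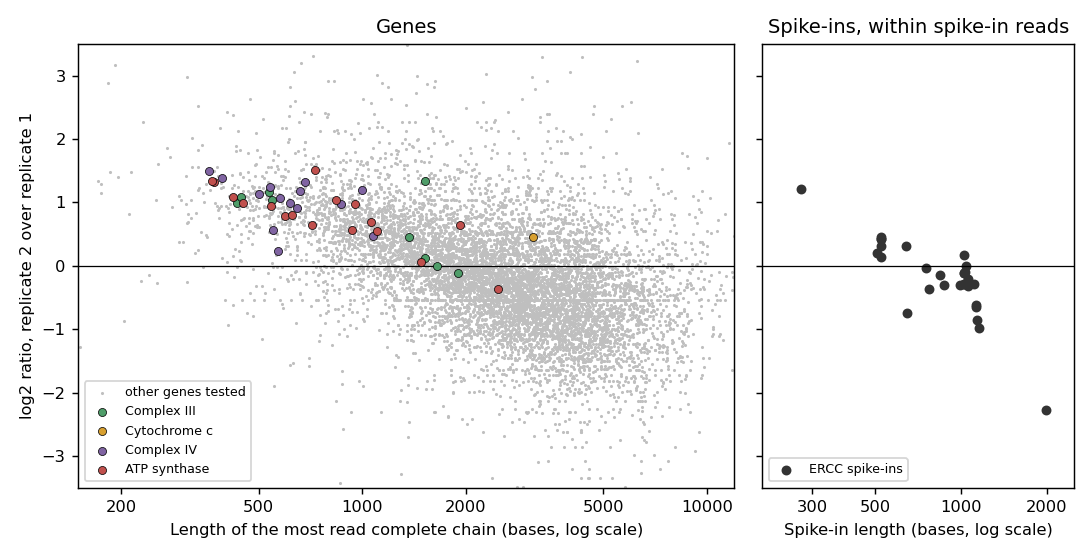
The left panel plots each gene's log2 ratio of replicate 2 over replicate 1 against the length of its most read complete chain (log axis), with members coloured by complex and 8646 other genes in grey (65 lie outside the axes); the right panel plots ERCC spike-ins in the same way. Short members lie near 1, the long Atp5a1 lies at -0.37, and both the grey points and the spike-ins slope down with length.

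With the length trend of all genes removed by a lowess curve, 20 of 41 members were called higher and 0 lower by an exact binomial test, where 7.51% and 5.5% of all genes were. The members' median was then 0.17. Complex IV then had 10 of 14 higher, ATP synthase 6 of 17, complex III 3 of 9, and Cycs was higher. The highest were Uqcrq at 1.19, Cycs at 0.90, Atp5g2 at 0.80, Atp5b at 0.72, Cox7b at 0.68 and Cox6a2 at 0.56. The muscle types Cox6a2 (0.56), Cox8b (0.38) and Cox7a1 (0.30) were still called, as was Cox7a2 (0.41), while Cox6a1 (-0.63) and Cox8a (-0.32) were not called. These values rest on the length of a complete chain, which many reads did not follow. The Uqcrq chain has 1521 bases, while another coding model of the gene has 405. The lengths used for Cycs and Cox7b, 3123 and 1001 bases, are those of annotated models, whose ends need not be those of the reads. A last-exon piece of Cox7b ended at chrX:106021958, short of the annotated 106022450. How far this enters the Cycs and Cox7b values was not tested. For Atp5g2, corrected with 731 bases, 60.3% of reads in replicate 2 and 39.6% in replicate 1 lay on a 151-base model. For Atp5b, corrected with 1916 bases, 56.2% and 24.0% lay on a 372-base piece, and its ratio was -0.20 with whole coding sequences alone. For Cox6a2 and Cox7a1, corrected with 680 and 393 bases, last-exon pieces took 33.8% and 23.4% of reads in replicate 2. In replicate 1 they took 18.7% and 9.07%. With whole coding sequences alone, and no length correction, the ratios of Cox6a2 and Cox7a1 were 1.02 and 1.14, against 1.32 and 1.38 over all reads. How far the pieces enter their corrected values was not tested. For Atp5f1 the complete chain used, of 1107 bases, had 5 reads in replicate 2 and 7 in replicate 1, and its main ISM model has 1118. Beside these ratios, the 7 slow fibre markers had a median log2 ratio of 3.20 and the 5 tendon markers one of 2.99, and all of them were called higher in replicate 2. Their part in the members' ratios was not tested.

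Of the 45 complex I genes, 35 were higher in replicate 2 and 1 lower, with a median log2 ratio of 0.89. Over all genes tested 11.1% were called higher and 14.9% lower. The complex I genes had a median length of 861 bases. Among genes of 700 to 1000 bases outside the members, 38.5% were called higher, with a median of 0.65. Ndufs7, Ndufa13 and Ndufc1 were read most, at 1502, 1142 and 1065 CPM in replicate 2 and 597, 631 and 506 CPM in replicate 1. Ndufa4, long listed with complex I and later placed in complex IV, had 5098 reads in replicate 2 and 1247 in replicate 1, a log2 ratio of 1.49. Complex II had 2 of 4 higher and 1 lower: Sdhb at 1240 and 708 CPM, Sdha at 672 and 1022 CPM, and Sdhd at 392 and 312 CPM. Sdha, the lower one, had a length of 2900 bases, and Sdhb and Sdhd, the higher ones, 1142 and 1231 bases.

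The mitochondrially encoded partners gave 5 tested genes, all higher in replicate 2, where 11.1% of all genes tested were. Their median length was 784 bases, and of genes of 700 to 1000 bases outside the members 38.5% were called higher. mt-Cytb, the core of complex III, had 3083 reads in replicate 2 and 463 in replicate 1, mt-Co1, the catalytic subunit of complex IV, 2442 and 804, and mt-Atp6, the ATP synthase proton channel subunit, 399 and 70. mt-Atp8 had 1 read and 0.

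Assembly factors help build the complexes without being part of them. The counts of these lists stand beside 11.1% of all genes tested called higher and 14.9% called lower. These shares moved with length among genes outside the members. From 700 to 1000 bases 38.5% were called higher and 2.32% lower, and above 3000 bases 2.79% and 24.7%. How far length enters the counts below was not tested. Complex IV factors had 8 of 22 higher and 4 lower, led by Cox14, Higd1a and Cox17 at 462, 312 and 217 CPM in replicate 2 and 235, 217 and 102 CPM in replicate 1. The 4 lower ones, Cox10, Cox15, Coa5 and Lrpprc, had lengths of 2915 to 4798 bases, and the 8 higher ones 444 to 2232 bases. Complex III factors had 2 of 6 higher and 2 lower, led by Uqcc2 (189 and 123 CPM), Uqcc1 (119 and 174 CPM) and Uqcc3 (104 and 58.9 CPM). The 2 lower ones, Ttc19 and Uqcc1, had 3410 and 2633 bases, and the 2 higher ones, Uqcc2 and Uqcc3, 500 and 821 bases. ATP synthase factors and regulators had 3 of 6 higher, led by Tmem70 (215 and 170 CPM), Fmc1 (94.4 and 48.6 CPM) and Atpaf1 (59.7 and 63.6 CPM). Of 6 transcriptional regulators tested, Esrra, a nuclear receptor of mitochondrial genes, was higher, with 1552 reads in replicate 2 and 178 in replicate 1. Tfam, which packages mitochondrial DNA, had 44 and 37 reads and Gabpa, an ETS factor, 14 and 22.

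The members' reads fell on 588 distinct models in replicate 2 and 392 in replicate 1. The deposited tables sort each transcript model by its intron chain: Known (the chain is annotated), ISM (a piece of an annotated chain), NIC (annotated splice sites in a new combination), NNC (at least 1 new splice site) and Genomic (in these genes, unspliced reads that match no annotated transcript). Known models took 80.9% of member reads in replicate 2 and 87.2% in replicate 1, ISM models 17.4% and 11.4%, NIC models 0.210% and 0.270%, NNC models 0.791% and 0.787%, and Genomic models 0.697% and 0.304%. Among complete chains (Known, NIC and NNC) the annotated share was 98.8% in replicate 2 and 98.8% in replicate 1, a mean of 98.8% ± 0.0177 (SD, n = 2).

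The share outside the annotation was also taken per gene, beside other protein-coding genes. Per gene with 20 or more complete-chain reads, the median share outside the annotation was 0.774% over 40 members and 5.10% over 4008 other genes in replicate 2, and 0.726% over 39 members and 5.56% over 3832 other genes in replicate 1. Members had a median of 4 exons and other genes 7 in replicate 2 and 8 in replicate 1. Among genes with up to 7 exons the medians were 0.743% for 35 members and 2.70% for 2006 other genes in replicate 2, and 0.662% for 34 members and 2.74% for 1717 other genes in replicate 1. These medians are descriptions with no test.

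Only 3 members had 10% or more of complete-chain reads outside the annotation: Atp5f1, Atp5j and Atp5s. In Atp5f1 the share was 97.1% in replicate 2 and 93.3% in replicate 1, but of few such reads. Nearly all its reads, 1679 of 1824 in replicate 2 and 816 of 856 in replicate 1, lay on a 7-exon ISM model that lacks the annotated noncoding first exon and holds the whole coding sequence. Atp5j was alike: a 4-exon ISM model with the whole coding sequence took 1746 of 2211 reads in replicate 2 and 603 of 762 in replicate 1. In Atp5s the shares were 13.3% and 23.1%, again of few reads.

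The 6 most read chains outside the annotation were all minor. An Atp5j chain that starts 1 exon 5 bases late, ahead of the coding sequence, took 148 reads in replicate 2 and 45 in replicate 1, or 6.69% and 5.91% of the gene. A 3-exon Uqcrh chain, which skips an exon of 4-exon Uqcrh-202, took 29 and 11 reads, or 4.26% and 4.85%. A second Atp5j chain had 19 and 13 reads, 2 Cyc1 chains had 18 and 10 and 14 and 11, and an Atp5j2 chain had 17 and 3. All 6 were found in both libraries.

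Most members kept 1 dominant form. Of 38 members with 20 or more complete-chain reads in each library and at least 2 chains, 30 had a leading chain with 90% or more of those reads in both libraries. The leading share differed between the libraries for 1 of 38 members (Fisher's exact test, adjusted over 3270 genes, of which 0.979% were called). At a minimum of 10 complete-chain reads 1 of 40 members was called, and 0.706% of all genes. The gene was Cox4i1, whose leading chain held 71.8% of complete-chain reads in replicate 2 and 65.6% in replicate 1 (adjusted p = 6.49e-07, Fisher's exact test).

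The leading Cox4i1 chain does not hold the coding sequence. It is Cox4i1-204, annotated as a retained intron transcript, whose 3 exons begin at chr8:120672590, inside an intron of the coding model, and share that model's last introns. It took 5861 reads in replicate 2 and 1739 in replicate 1. The 5-exon coding model Cox4i1-201 took 2221 and 872 reads. Models with a whole coding sequence held 28.2% of Cox4i1 reads in replicate 2 and 34.5% in replicate 1, the lowest share among the 41 members with 10 or more reads in each library. Whether Cox4i1-204 reads are transcripts of their own or 3′ pieces of the coding transcript cannot be told from these tables, because a Known model carries the ends of the annotation and not those of its reads.

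Counting over all members, reads on models that hold a whole annotated coding sequence made up 78.4% in replicate 2 and 86.8% in replicate 1, against 72.7% and 68.1% for other protein-coding genes. These shares are pooled over reads and not matched for length. The median length was 659 bases over the members tested and 2600 over the other genes tested. NNC models took 2.66% of reads of other protein-coding genes in replicate 2 and 19.6% in replicate 1. For 41 members the median share was 93.6% in replicate 2 and 96.0% in replicate 1, and 30 members were at 90% or more in both. The share was lower in replicate 2 for 33 of the 41. Cox7c at 99.96% and Atp5mpl at 99.7% in replicate 2 were almost wholly on such models.

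A few members carried a large 3′ piece. For Atp5b, a 2-exon model of 372 bases that starts at chr10:128089041 took 5077 reads in replicate 2 and 945 in replicate 1, or 56.2% and 24.0% of the gene. The 10-exon coding model Atp5b-201 took 3544 and 2789. For Uqcrq, a 198-base piece of the last exon took 1575 and 243 reads, or 44.3% and 25.2%. For Cox6a2 a 378-base piece, the last exon, took 1539 and 235 reads, or 33.8% and 18.7%, and for Cox7a1 a 119-base piece, again the last exon, took 351 and 36 reads, or 23.4% and 9.07%. For Atp5g2 a Genomic model of 151 bases at the 3′ end took 267 and 42 reads, or 60.3% and 39.6%. In each of these 5 genes the piece took a larger share in replicate 2. The same direction was seen outside the members. Single-exon ISM or Genomic models took 5.76% of member reads in replicate 2 and 2.39% in replicate 1, and 7.70% and 3.08% for other protein-coding genes. ISM models as a whole took 12.2% and 8.50% of reads of those other genes.

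**Figure D4:**
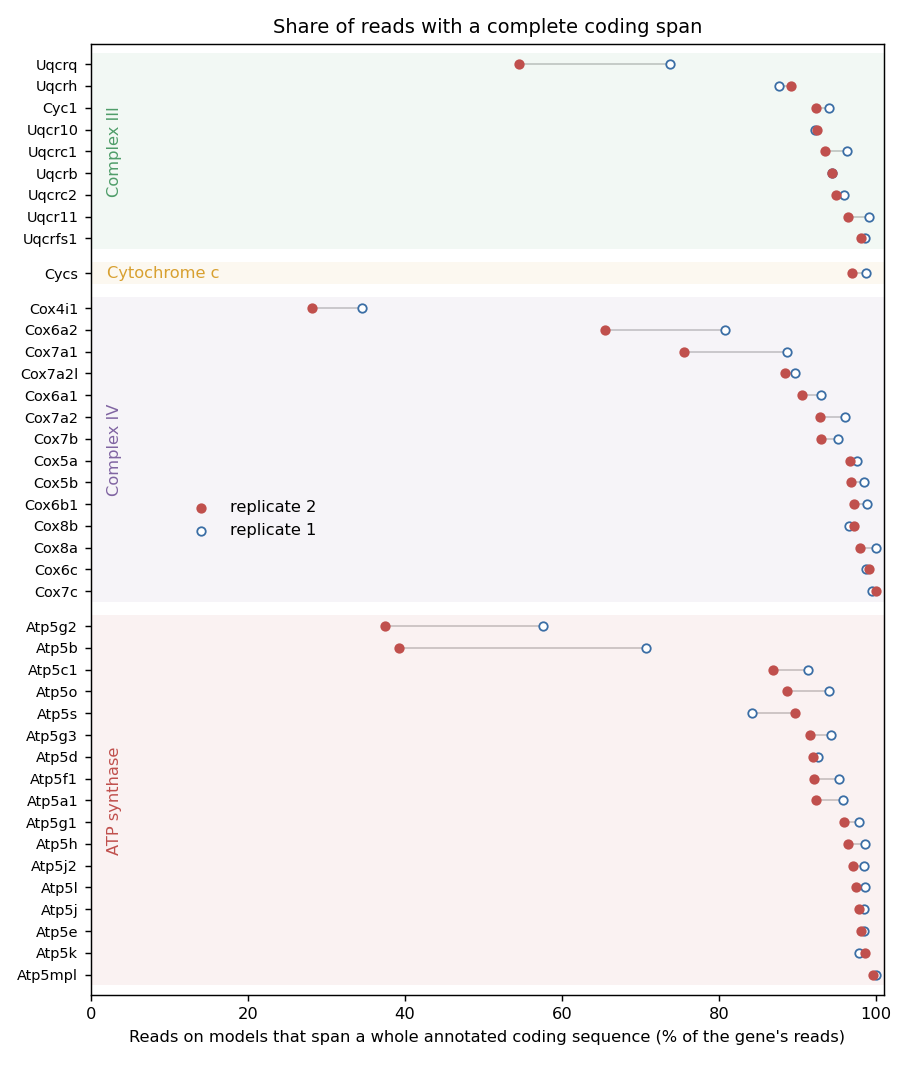
Each row is a member with 10 or more reads in each library, grouped by complex; the x axis gives the percent of its reads on models that hold a whole annotated coding sequence, with filled points for replicate 2 and open points for replicate 1. Cox4i1, Atp5g2, Atp5b, Uqcrq, Cox6a2 and Cox7a1 lie lowest, and for 33 of 41 rows the filled point is to the left.

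The pieces bear on the levels given above. With reads that hold a whole coding sequence alone, over the same mouse totals, the members' median log2 ratio was 0.90 in place of 0.97, and the ratio was smaller for 32 of 41. Atp5b, at 0.65 over all reads, stood at -0.20, from 3544 reads in replicate 2 and 2789 in replicate 1. Cox6a2 stood at 1.02, Cox4i1 at 0.78, Uqcrq at 0.90 and Atp5g2 at 0.89. Cox8b, at 1.51, and Atp5k and Atp5mpl, at 1.34 each, were nearly untouched. The highest was Cox8b and the lowest Atp5a1, at -0.42.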

How the data were processed

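The deposited tables hold whole-number read counts per transcript model, with no normalization, per the file headers and values, and are derived from mm10 alignments and GENCODE M21. TALON appears as the source field of the gene models. Platform, aligner and filters: not given in the sources used here. Counts were summed per gene, and CPM used mouse reads without spike-ins (31067 in replicate 2 and 30993 in replicate 1). How reads of near-identical genes were placed is not given; 8 noncoding entries with matching names held 4 reads in replicate 2 and 3 in replicate 1. No per-sample columns were left out.

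Genes with 10 or more reads over both libraries were tested by two-sided Fisher's exact test with Benjamini-Hochberg adjustment at 0.05, adding 0.5 reads in log2 ratios. With 1 library a side edgeR's quasi-likelihood test has no residual degrees of freedom. Gene length is that of the most read complete chain (Known, NIC or NNC; the median where its models differ in length), so ISM and Genomic models do not enter it. Coding sequences and sequences shown came from GENCODE M21. Alternatives used TMM, DESeq2 1.42.0 size factors, edgeR 4.0.16 (R 4.3.3), lowess (fraction 0.4, statsmodels 0.14.6), other minimums (50 reads) and other classes. The rest used Python 3.11.15, pandas 2.3.3, scipy 1.17.1 and Biopython 1.88. The gene and leading chain tests were tried on simulated counts with counting error alone. Those counts held no spread between libraries and no length trend, so they do not bear on either. Genes named are the 12 most read members, tissue-type families, Cyc1, Cycs, the 5 largest ratios each way, members with 0 reads, differing leading chains or 10% of chains outside the annotation, the 6 most read such chains and the 3 most read of each related list; other members were named after their values were seen. Members and lists were chosen with earlier results of these data known. Coding span, spike-in and per-length measures were added after seeing the data.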

Additional observations from a re-analysis of the deposited data

How the results depend on the processing

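No paired analysis was possible because there is 1 group and no other to pair it with. Of the 34 members higher and 1 lower in replicate 2, 20 and 0 were called with the length trend removed, 2 and 0 by the edgeR exact test with dispersion fixed to 0.04 (24 at an unadjusted p under 0.05), and 0 and 0 with the dispersion estimated as 0.132 (0 at an unadjusted p under 0.05). TMM and DESeq2 size factors moved the median of all genes by 0.18 and gave 37 and 1. Complete chains alone gave 35 and 1, a minimum of 50 reads 35 and 1, no minimum or a threshold of 0.01 34 and 1. The log2 ratio changed sign for Uqcrc1 (0.18) and Uqcrc2 (0.06) with TMM and DESeq2, for Uqcrc1 (0.12), Uqcrc2 (0.04), Atp5b (-0.05) and Atp5s (-0.19) with complete chains alone, and for Atp5g1 (-0.05), Atp5g3 (-0.08), Atp5h (-0.01), Atp5j (-0.00), Atp5s (-0.11), Cox6a1 (-0.63), Cox8a (-0.32), Cyc1 (-0.01) and Uqcr10 (-0.03) with the length trend removed. The Cox7a1 share of its pair was 43.3% in complete chains, 43.3% in Known models and 59.8% per model length. The annotated share was 99.0% over models with 2 or more reads. The causes were not tested. With each replicate left out the members took 3.08% to 5.34% of reads. Member totals, Cox6a2, Cox8b and Atp5c1 shares and the count of differing leading chains moved by less than the replicate spread or 1.5 times in the other settings tried. With 2 libraries, no difference between animals can be tested.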
